A study of Mus musculus with 4 samples.

Results

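T cell receptor loci and the genes of early T cell receptor signalling were followed in marrow cells sorted from mice before and after transplantation. The set holds 34 gene names of 29411 on the array, read by 48 of its 61307 non-control probes. Of these, 7 probes bore 5 receptor locus names (3 Tcra probes, 3 Tcrb, 1 Tcrg and 0 Tcrd) and 41 probes covered 29 genes chosen by name, every one of which was on the array. The members were picked by gene name, with earlier results of these data known.

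The series holds 4 one-colour Agilent arrays of C57BL6/J mouse marrow, the mice being 7 weeks old per the labels. CD45-negative cells, sorted as stromal or niche cells, were taken at day 10 from recipients given 700 cGy of radiation and 30000 transplanted LSK cells, and at day 0 from healthy mice. LSK cells (lineage-negative cells with Sca-1 and c-kit on their surface, the fraction where blood stem cells and early progenitors are found) were sorted from such recipients at day 10 and from healthy mice at day 0. The LSK cells transplanted came from CD45.2 donors and the recipients were CD45.1 animals, per the labels. One protocol field names the stromal gate as CD45.1-negative and the other fields only as CD45-negative, so the antibody form used is not settled. The lineage antibodies and the number of mice behind an array are not given in the sources used here. Both day 10 groups received radiation and transplantation together, so these cannot be told apart. Each of the 4 groups had 1 array. No comparison therefore has a replicate, a standard error or a test, and every difference is one between 2 arrays.

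A T cell reads antigen through a receptor of paired alpha and beta, or gamma and delta, chains. The chains have variable segments joined by gene rearrangement and constant segments shared by many cells, and they signal only through the CD3 and zeta chains assembled around them. The co-receptors CD4 and CD8 bring the kinase Lck to the complex, Lck and ZAP-70 then phosphorylate adaptors such as LAT, and enzymes downstream open the calcium, Ras and NF-kappaB routes. Marrow of healthy mice holds recirculating and memory T cells, whereas T cell development itself takes place in the thymus. T cells carry CD45, the pan-leukocyte antigen encoded by Ptprc.

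Levels are log2 processed signals minus the 75th percentile of the same array, so 0 marks that percentile and levels serve to compare arrays at 1 probe and not probes with each other. A probe was read as measured where the scanner software marked it well above background. Where it was marked so on only 1 of 2 arrays, the difference is given as a lower bound ("at least"), set against the lowest measured signal of the dim array or the dim probe's own signal, whichever was higher. A difference of 1 log2 unit, or 2-fold, was used as a size, not as a test. Replicate spots of 1 probe had a median SD of 0.0870 to 0.107 log2 units. Between probes of different name but identical sequence, the CD45-negative day difference disagreed by a median of 0.19 and by 0.97 at the 95th percentile over 699 pairs. In LSK cells these gaps were 0.12 and 0.60 over 787 pairs. The 4 arrays had 52.1% to 60.5% of their 40628 gene probes above background.

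The labelled populations were set against marker genes first. Ptprc stood at 5.58 in day 10 and 3.10 in day 0 CD45-negative cells, and at 4.25 in day 10 and 4.18 in day 0 LSK cells, so the transcript of the excluded antigen was measured in the sort meant to lack it. Kit, the stem cell factor receptor used to sort LSK cells, stood at 1.94 and 1.52 in CD45-negative cells of day 10 and day 0, and at 4.65 and 5.04 in LSK cells of day 10 and day 0. Ly6a, which encodes Sca-1, stood at 3.44 and 0.20 in the same CD45-negative cells and at 2.86 and 2.98 in the LSK cells. In CD45-negative cells 10 of 10 erythroid markers were lower at day 10 by 2-fold or more, their median difference being -4.70, and 10 of 11 stromal markers were lower by that size with bounds counted. Over all gene probes 19.1% were lower by that size with bounds counted. In bulk RNA, fewer cells of a type and less RNA per cell cannot be told apart. This holds for every difference below.

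**Figure D1:**
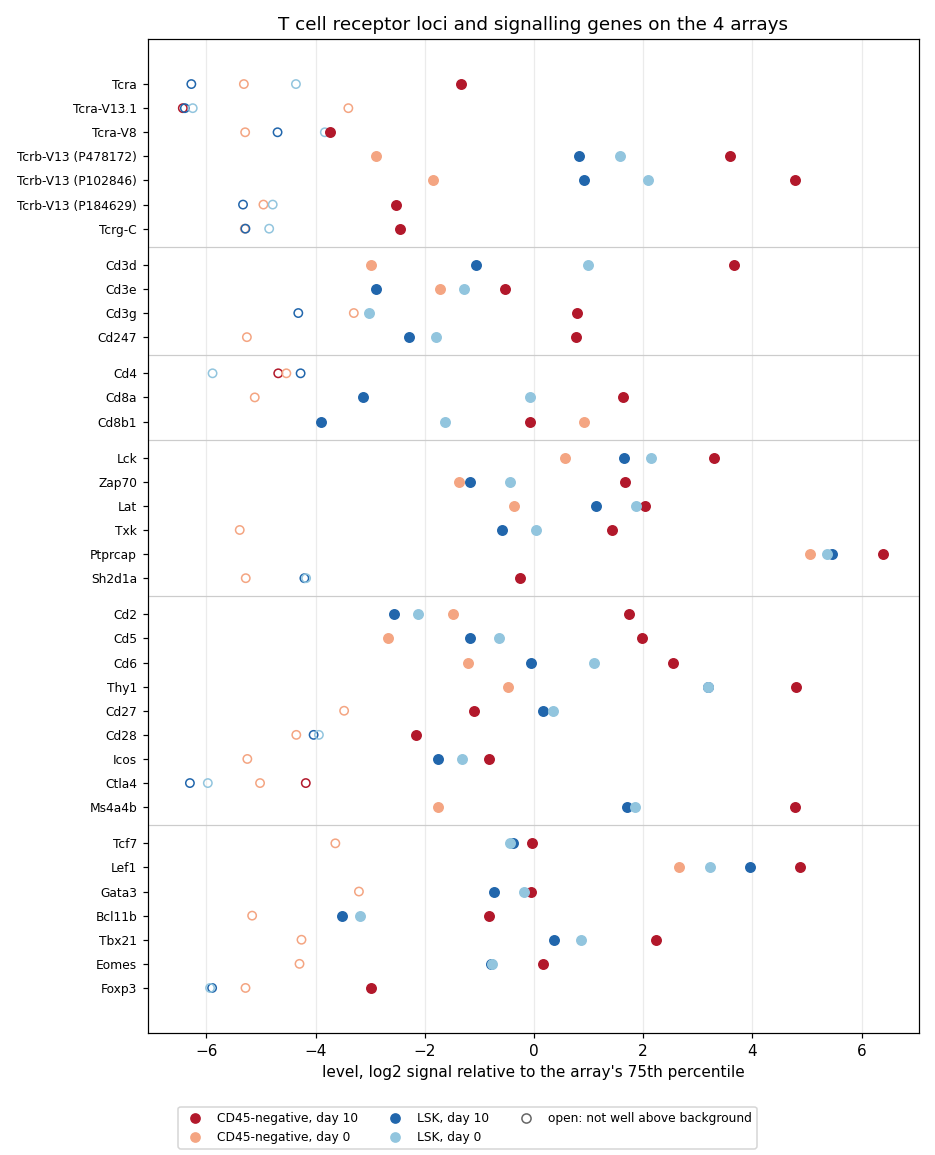
Level of each of the 29 genes (brightest probe) and each of the 7 receptor probes on the 4 arrays, as log2 signal relative to the array's 75th percentile. Filled points are well above background and open points are not. The dark red points of day 10 CD45-negative cells lie furthest right for most rows, and many day 0 CD45-negative points are open.

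The T cell set was measured most fully in CD45-negative cells of day 10. There 44 of 48 member probes were above background, against 18 of 48 in CD45-negative cells of day 0, and in LSK cells 32 were at day 10 and 35 at day 0. Of the 44 probes above background on at least 1 array, 9 were so on the day 10 CD45-negative array alone and are highest there by that fact. Of the 35 above background on at least 2 arrays, 31 were highest on that array, 1 on the day 0 CD45-negative array, 1 on the day 10 LSK array and 2 on the day 0 LSK array. Day 0 CD45-negative cells were the low end: 15 of the 18 probes above background everywhere were lowest there, and another 14 were below background on that array alone. The other 3 of the 18 were lowest in day 10 LSK cells. The remaining 4 probes, for Cd4, Ctla4, Tcra-V13.1 and 1 of 3 Cd247 probes, were below background on all 4 arrays. No member probe was saturated. The order of the arrays was not counted over all gene probes, so these counts have no share beside them. Of all gene probes, 57.5% and 52.1% were above background in CD45-negative cells of day 10 and day 0. In LSK cells 60.5% were at day 10 and 58.7% at day 0. The day 0 CD45-negative array thus measured the fewest gene probes, and its lowest measured level, -3.15, was the highest of the arrays.

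The receptor probes are shown by sequence because what they detect depends on whether their letters lie in a constant or a variable segment. The sequences are the array's own, printed 5′ to 3′, and capitals mark the run that a probe shares with the probe printed beside it. The first 5 lie in the alpha constant segment, a beta constant segment (P478172), the neighbouring stretch of a beta constant segment (a probe outside the set, listed in the files under a transcript identifier), the framework end of a beta variable segment (P184629) and the gamma constant locus. The last pair are an alpha variable probe and a second array probe, named EG667677, that shares 30 of its 60 letters. Segments of receptor probes, here and below, were read from letters and descriptions and not from an alignment.
Tcra: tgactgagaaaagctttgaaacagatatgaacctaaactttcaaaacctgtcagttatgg
Tcrb-V13 P478172: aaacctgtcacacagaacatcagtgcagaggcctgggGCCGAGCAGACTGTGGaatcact
Tcrb C1: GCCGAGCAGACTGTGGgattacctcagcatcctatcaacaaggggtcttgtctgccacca
Tcrb-V13 P184629: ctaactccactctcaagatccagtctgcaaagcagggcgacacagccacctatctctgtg
Tcrg-C: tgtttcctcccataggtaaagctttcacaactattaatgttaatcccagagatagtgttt
Tcra-V8: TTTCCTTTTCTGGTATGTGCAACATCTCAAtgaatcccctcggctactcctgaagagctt
EG667677: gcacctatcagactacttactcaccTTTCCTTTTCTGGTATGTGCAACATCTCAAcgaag
The beta constant pair share 16 letters. A name such as Tcrb-V13 therefore does not fix the V segment of the transcript that was read, and transcripts of related segments may bind the same probe.

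Beta chain probes gave the largest receptor differences. Tcrb-V13 at P478172, the constant probe, stood at 3.59 in day 10 and -2.90 in day 0 CD45-negative cells, a difference of 6.49 or 89.9-fold. In LSK cells it stood at 0.83 at day 10 and 1.57 at day 0, a difference of -0.74. The day 10 CD45-negative array was thus the high one and the day 0 CD45-negative array the low one, with both LSK arrays between them. A second probe filed as Tcrb-V13, P102846, followed the same order, with 4.78 and -1.86 in CD45-negative cells of day 10 and day 0 and 0.92 and 2.09 in LSK cells of day 10 and day 0. Its LSK difference was -1.16. The variable-segment probe P184629 was above background in day 10 CD45-negative cells only, at -2.52, which is at least 1.54-fold over day 0, so the 3 probes filed under 1 name disagreed in size.

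The alpha and gamma probes of the set that were measured at all, Tcra, Tcra-V8 and Tcrg-C, were above background in day 10 CD45-negative cells alone. Alpha variable probes outside the set were also measured elsewhere: 1 of the Trav8d-1 probes was above background on all 4 arrays, and Trav14n-3 stood at -2.62 and -1.15 in CD45-negative cells of day 10 and day 0. Of the 4 probes outside the set that their descriptions place in a constant region, 4 were above background on both LSK arrays. Tcra, the alpha constant probe, stood at -1.34 in day 10 CD45-negative cells and was not well above background on the other 3 arrays. Its difference was at least 3.50-fold over day 0 CD45-negative cells and at least 6.76-fold over day 10 LSK cells. Under normexp background correction its bound over day 0 was 0.31 on the log2 scale. Tcrg-C, for the gamma constant locus, stood at -2.45 there, at least 1.63-fold over day 0. The variable probe Tcra-V8 stood at -3.74, under the lowest measured level of the day 0 array (-3.15), so no fold is given, and Tcra-V13.1 was not measured on any array. No probe bore a Tcrd name, so the delta locus is not described.

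The CD3 chains carry the signal of the receptor into the cell. All 4 genes were at least 2-fold higher in CD45-negative cells at day 10, 2 of them as bounds, where 22.1% of gene probes were with bounds counted. Cd3d, the delta chain of CD3, stood at 3.67 in day 10 and -2.98 in day 0 CD45-negative cells, and at -1.05 in day 10 and 0.98 in day 0 LSK cells. Cd3e, the epsilon chain to which most T cell antibodies against CD3 bind, stood at -0.53 and -1.73 in CD45-negative cells of day 10 and day 0, and at -2.89 and -1.28 in LSK cells of day 10 and day 0. Its CD45-negative difference of 1.20 was much smaller than that of Cd3d, 6.64, although both chains sit in the same complex. Under normexp background correction the Cd3e difference was 0.20, which ends the 2-fold call.

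Cd3g, the gamma chain of CD3, stood at 0.80 in day 10 CD45-negative cells and was below background at day 0, a difference of at least 15.4-fold. In LSK cells it was below background at day 10 and stood at -3.02 at day 0, at least 2.12-fold lower at day 10. Cd247, the zeta chain that holds most of the complex's phosphorylation motifs, stood at 0.78 in day 10 CD45-negative cells at its brightest probe, at least 15.2-fold over day 0. In LSK cells that probe stood at -2.29 at day 10 and -1.79 at day 0. Its other probes differed: 1 was above background in day 10 CD45-negative cells only (-2.82, at least 1.26-fold over day 0) and 1 on none of the arrays.

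The probe of Cd3d is shown because it gave the largest measured difference of the set in CD45-negative cells, ranking 3 of 20215 gene probes measured at both days.
Cd3d: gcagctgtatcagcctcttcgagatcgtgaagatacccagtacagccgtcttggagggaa
The ranks of the 2 Tcrb-V13 probes were 4 and 6, and that of Cd3e was 3465.

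Upstream sequences of the 3 linked CD3 genes are given next, since their day differences in CD45-negative cells were of unequal size and in LSK cells ran one way. They are the 250 bases before the RefSeq start on build GRCm38.p6, in the direction of each gene, with motif letters in capitals. Cd3d lies at chr9:44981536-44981785 on the plus strand, Cd3g at chr9:44980432-44980681 on the minus strand and Cd3e at chr9:45009612-45009861 on the minus strand. The starts of Cd3g and Cd3d point away from each other across 1355 bases, and that of Cd3e lies 27825 bases from that of Cd3d.
Cd3d: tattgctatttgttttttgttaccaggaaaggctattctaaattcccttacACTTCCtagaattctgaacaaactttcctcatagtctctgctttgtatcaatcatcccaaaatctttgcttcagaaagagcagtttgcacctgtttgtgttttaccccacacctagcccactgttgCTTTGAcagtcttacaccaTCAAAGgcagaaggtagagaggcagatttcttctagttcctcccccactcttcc
Cd3g: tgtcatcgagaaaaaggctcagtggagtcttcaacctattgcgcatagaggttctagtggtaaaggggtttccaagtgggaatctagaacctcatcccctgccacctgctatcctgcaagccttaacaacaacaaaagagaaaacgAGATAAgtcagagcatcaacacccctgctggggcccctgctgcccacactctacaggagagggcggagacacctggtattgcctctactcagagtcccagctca
Cd3e: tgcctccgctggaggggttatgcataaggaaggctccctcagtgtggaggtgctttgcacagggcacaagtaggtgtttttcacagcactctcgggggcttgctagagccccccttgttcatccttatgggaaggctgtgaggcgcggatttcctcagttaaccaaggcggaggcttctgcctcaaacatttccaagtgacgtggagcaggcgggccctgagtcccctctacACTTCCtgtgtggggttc
The letters searched on both strands were GGAAGT for ETS factors, CTTTGA for TCF and LEF factors, AGATAA for GATA factors and TGTGGT for RUNX factors, none of which overlap in these windows. Cd3d held 1 ETS and 2 TCF/LEF matches, Cd3g 1 GATA match and Cd3e 1 ETS match. Of the 29 genes, 20 had an entry in the RefSeq promoter table. The ETS letters occurred in 9 of these 20 (45%) and in 20.0% of 27025 genes, the TCF/LEF letters in 4 (20%) and in 14.0% of genes, and the GATA and RUNX letters in 1 each (5%) and in 10.3% and 14.2% of genes. A match is a run of letters and not a bound site.

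The co-receptors differed among themselves. Cd8a, the CD8 alpha chain, stood at 1.62 in day 10 CD45-negative cells at its brightest probe and was below background at day 0, at least 27.4-fold apart, while in LSK cells it stood at -3.13 at day 10 and -0.08 at day 0. Cd8b1, the beta chain that pairs with it on conventional killer T cells, stood at -0.08 and 0.92 in CD45-negative cells of day 10 and day 0, a difference of -0.99 in the other direction. In LSK cells Cd8b1 stood at -3.91 at day 10 and -1.62 at day 0, 4.87-fold lower at day 10. Cd8b1 was the 1 member highest on the day 0 CD45-negative array. With arrays scaled on spike-in controls its CD45-negative difference was 2.27, so its direction there depends on the scaling. Cd4, the co-receptor of helper T cells, was not well above background on any array.

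The 3 probes of Cd8a agreed in which array was highest but not in what they measured elsewhere. One of them, taken to lie in coding sequence without being mapped, was above background in day 10 CD45-negative cells only, at -2.62, or at least 1.44-fold over day 0.
Cd8a: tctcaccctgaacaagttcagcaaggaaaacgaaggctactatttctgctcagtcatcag
Another stood at 0.27 in those cells, at least 10.7-fold over day 0, and was below background in LSK cells at day 10 but at -1.39 at day 0, at least 6.55-fold lower at day 10.

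**Figure D2:**
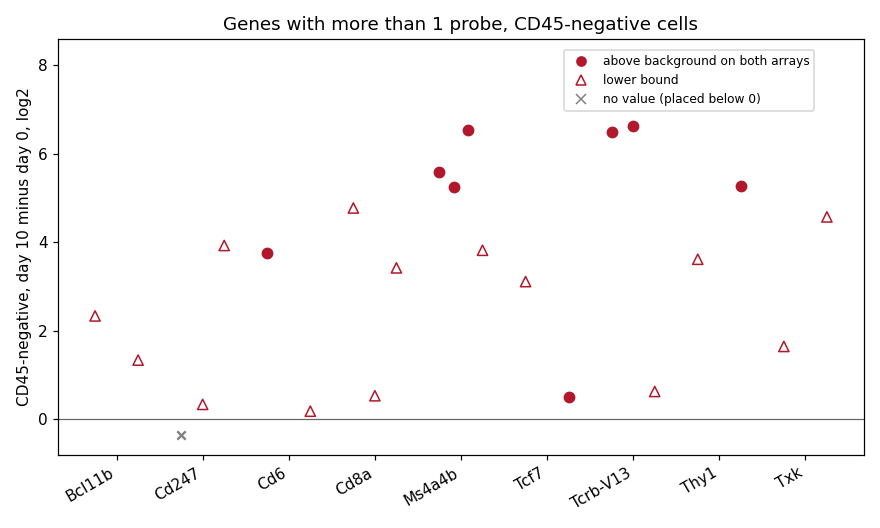
Day 10 minus day 0 in CD45-negative cells, on the log2 scale, for each probe of the genes with more than 1 probe. Filled points were above background on both arrays, triangles are lower bounds and crosses have no value. The 4 Ms4a4b points lie between a bound of 3.82 and 6.53, and the points of Cd8a lie between bounds of 0.53 and 4.78.

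All 6 proximal kinases and adaptors were at least 2-fold higher in CD45-negative cells at day 10, where 22.1% of gene probes were with bounds counted, and 0 of the 5 with a value in LSK cells differed by that size. Lck, the kinase that starts the signal, stood at 3.30 and 0.57 in CD45-negative cells of day 10 and day 0, a 6.66-fold difference, and at 1.65 and 2.14 in LSK cells of day 10 and day 0. Zap70, the kinase recruited to the phosphorylated zeta chain, stood at 1.68 and -1.37 in CD45-negative cells of day 10 and day 0 and at -1.16 and -0.43 in LSK cells. The adaptor gene Lat stood at 2.03 and -0.37 in the CD45-negative cells and at 1.14 and 1.87 in the LSK cells. For these 3 genes the LSK arrays lay 0.49 to 0.74 apart, with day 0 higher, while the 2 CD45-negative arrays lay 2.40 to 3.04 apart.

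Txk, a Tec family kinase of T and NK cells, stood at 1.42 in day 10 CD45-negative cells and was below background at day 0, at least 23.8-fold apart, and its weaker probe gave at least 3.13-fold. Sh2d1a, the adaptor SAP that couples SLAM family receptors to the kinase Fyn, was above background in day 10 CD45-negative cells alone, at -0.26 and at least 7.39-fold over day 0. Ptprcap, a protein bound to CD45, was above background on all 4 arrays, at 6.40 and 5.06 in CD45-negative cells of day 10 and day 0 and at 5.45 and 5.36 in LSK cells of day 10 and day 0. Its 2.53-fold difference was the smallest of this role.

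Of 9 adhesion and costimulatory genes 7 were higher by 2-fold or more in CD45-negative cells at day 10 with bounds counted (22.1% of gene probes). In LSK cells 1, Cd6, was lower by that size (3% of gene probes). Ms4a4b, a membrane protein of T and NK cells, stood at 4.78 and -1.76 in CD45-negative cells of day 10 and day 0 and at 1.71 and 1.85 in LSK cells of day 10 and day 0. Its 3 other probes gave 48-fold, 38.2-fold and at least 14.1-fold in CD45-negative cells. Thy1, a surface marker of mouse T cells also carried by some progenitor and stromal cells, stood at 4.79 and -0.47 in CD45-negative cells of day 10 and day 0, while the LSK arrays gave 3.18 at both days. Cd5, a receptor that dampens T cell receptor signals, stood at 1.97 and -2.67 in the CD45-negative cells, 24.9-fold apart, and at -1.17 and -0.65 in the LSK cells. Its relative Cd6 stood at 2.55 and -1.20 in the CD45-negative cells and at -0.05 and 1.09 in the LSK cells, with a second probe at -2.97 and below background in the CD45-negative cells.

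Cd2, an adhesion receptor of lymphocytes, stood at 1.74 and -1.48 in CD45-negative cells of day 10 and day 0, 9.32-fold apart, and at -2.55 and -2.13 in LSK cells of day 10 and day 0. Cd27, a costimulatory receptor of lymphocytes and early progenitors, was the exception between sorts: it stood at -1.10 in day 10 CD45-negative cells, at least 4.14-fold over day 0, but at 0.17 in day 10 and 0.34 in day 0 LSK cells. Icos stood at -0.82 in day 10 CD45-negative cells, at least 5.02-fold over day 0, and at -1.75 and -1.32 in the LSK cells. Cd28, the main costimulatory receptor of naive T cells, was above background in day 10 CD45-negative cells alone, at -2.16 and at least 1.98-fold over day 0. Ctla4, its inhibitory relative, was not well above background on any array. Under normexp background correction the bounds of Cd27 and Icos over day 0 were 0.45 and 0.62, which is under 2-fold.

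Of the 7 T lineage transcription factors, 6 were at least 2-fold higher in CD45-negative cells at day 10 with bounds counted (22.1% of gene probes), but 5 of the 6 rest on a bound. Tbx21, the T-bet factor of type 1 helper, killer and NK cells, stood at 2.24 in day 10 CD45-negative cells and was below background at day 0, at least 42-fold apart, against 0.37 in day 10 and 0.86 in day 0 LSK cells. Its relative Eomes stood at 0.17 in day 10 CD45-negative cells, at least 9.96-fold over day 0, against -0.78 in day 10 and -0.77 in day 0 LSK cells. Gata3, the factor of type 2 helper cells and of early T cell commitment, stood at -0.05 in day 10 CD45-negative cells, at least 8.59-fold over day 0, against -0.73 in day 10 and -0.17 in day 0 LSK cells. None of these 3 factors belongs to T cells alone, and NK and innate lymphoid cells use each of them.

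Lef1, which with Tcf7 acts at the end of the Wnt route in T cell progenitors, was measured on all 4 arrays: 4.87 and 2.66 in CD45-negative cells of day 10 and day 0, and 3.96 and 3.23 in LSK cells of day 10 and day 0. It was the member with the largest higher difference in LSK cells, 0.74. Tcf7 stood at -0.04 in day 10 CD45-negative cells at its brightest probe, at least 8.64-fold over day 0, but at its other probe the levels were -2.44 and -2.94 in CD45-negative cells of day 10 and day 0, a difference of 0.50, so the 2 probes disagreed. Bcl11b, the factor that seals T cell commitment, stood at -0.82 in day 10 CD45-negative cells, at least 5.05-fold over day 0, against -3.51 in day 10 and -3.19 in day 0 LSK cells. Under normexp background correction the Bcl11b bound was 0.67. Foxp3, the factor of regulatory T cells, was above background in day 10 CD45-negative cells alone, at -2.98 and at least 1.12-fold over day 0.

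**Figure D3:**
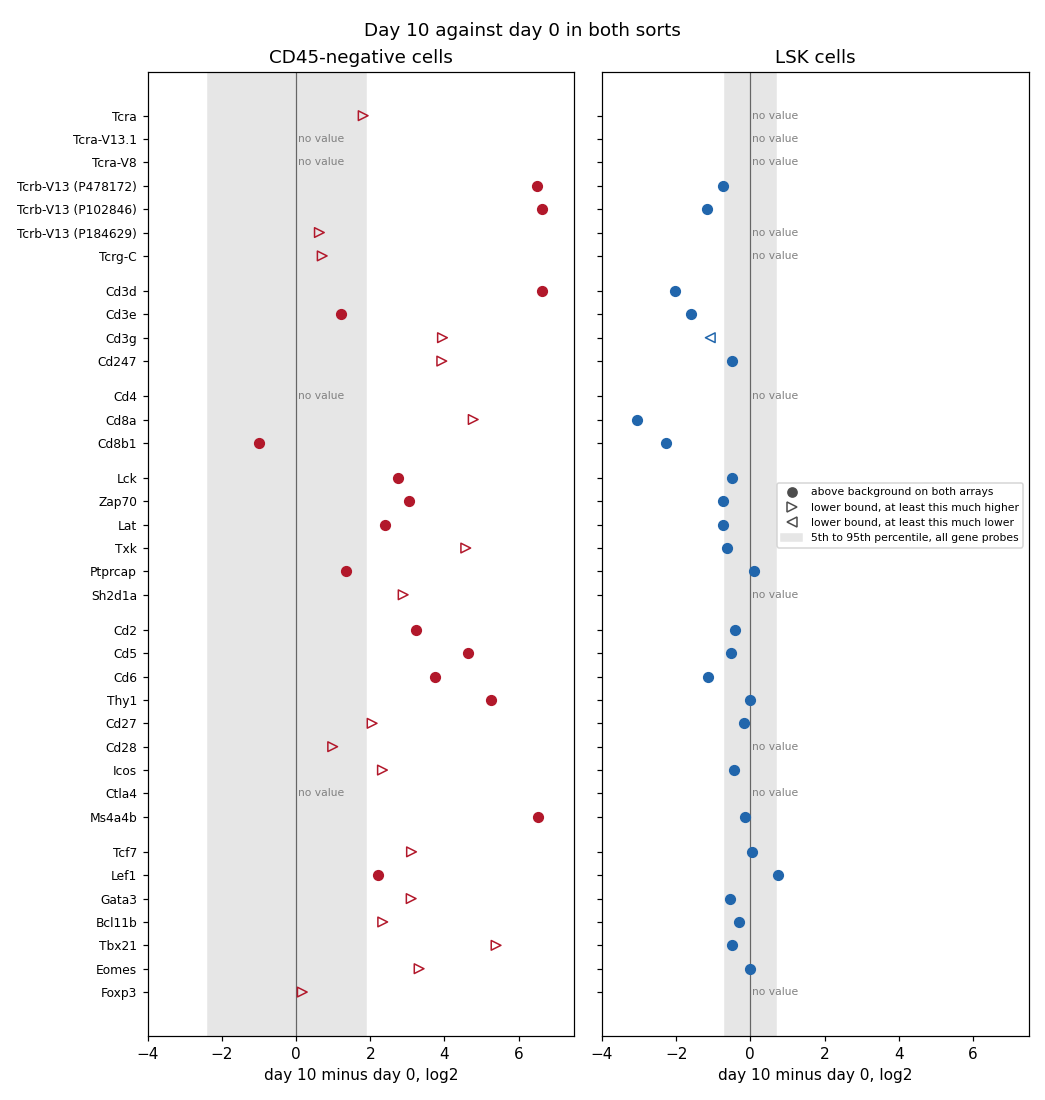
Day 10 minus day 0 on the log2 scale for each member in CD45-negative cells (left) and LSK cells (right). Filled points were above background on both arrays, open triangles are lower bounds pointing the way of the difference, and the grey band spans the 5th to the 95th percentile of all gene probes (-2.37 to 1.88 on the left, -0.70 to 0.69 on the right). Most left-hand members lie beyond the band, and most right-hand members with a value lie at or below 0.

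Counted over the set, 16 of the 18 member probes measured at both days in CD45-negative cells were at least 2-fold higher at day 10, where 22.5% of the 20215 gene probes were, and 0 were lower by that size, where 18.2% were. With bounds counted, 34 of 44 were higher (22.1% of gene probes) and 0 lower (19.1%). Of these 44, 26 were above background at day 10 only and so could not be called lower. Over all gene probes 4095 of 24310 were above background at 1 day only, so these shares are not a like comparison. The median difference over the 18 was 3.48, in a range of -0.99 to 6.64, beside 0.16 over all gene probes measured at both days. The 2 members of the 18 under 2-fold were Cd8b1 and the weaker Tcf7 probe. The scale matters to such counts. Of the gene probes at least 2-fold apart, 55.2% were higher at day 10, against 76.0% with arrays scaled on their medians and 99.1% with arrays scaled on spike-ins, where the median of all gene probes was 3.42. The members' median exceeded that of all gene probes by 3.33 under the reported scaling. These 2 alternatives shift every probe of an array alike and cannot move that gap, while normexp gave 2.75 and quantile normalization 3.22.

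In LSK cells 6 of the 32 member probes measured at both days were at least 2-fold lower at day 10, where 2.31% of 23107 gene probes were, and 0 were higher, where 1.62% were. With bounds counted, 9 of 35 were lower (3% of gene probes) and 0 higher (2.01%). The median difference was -0.50, in a range of -3.05 to 0.74, beside 0.02 over all gene probes. The 9 probes belong to Cd3d, Cd3e, Cd3g, Cd8a (2 probes), Cd8b1, Cd6, Bcl11b (its weaker probe) and Tcrb-V13 (P102846), so the CD3 and CD8 chains made up most of them and the kinases, Thy1 and Ms4a4b were absent. Under normexp background correction only 3 probes were at least 2-fold lower; Cd3d (-1.68) and Cd8a (-1.73) kept that size at their brightest probes while Cd3e gave -0.69, Cd3g -0.32, Cd8b1 -0.94 and Cd6 -0.96. Of the 26 members with a value in both sorts, 6 were at least 2-fold higher at day 10 in CD45-negative cells and at least 2-fold lower in LSK cells, where 0.891% of 22099 gene probes were. Of the gene probes at least 2-fold apart in LSK cells, 41.2% were higher, against 52.6% under median scaling and 19.7% under spike-in scaling, with 0 member probes at least 2-fold higher under both.

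CD45-negative and LSK cells were then set against each other on the same day. At day 10, 22 of 32 member probes measured in both sorts were at least 2-fold higher in CD45-negative cells (12.4% of gene probes), with a median difference of 2.22, and 1 was lower (11.4%). The 1 lower was Cd27, at -1.27. With bounds counted the numbers were 33 higher and 1 lower of 44 (12.6% and 13.3% of gene probes). Of the 44, 12 were above background in CD45-negative cells only and could not be called lower. The largest measured differences were those of Cd8a (4.75), Cd3d (4.72) and Cd2 (4.29), and Cd3g was at least 29.8-fold higher. At their brightest probes the least separated genes above background in both sorts were Tcf7 (0.35) and Gata3 (0.69). The other Tcf7 probe gave -0.99, so the direction for Tcf7 depended on the probe. Of gene probes at least 2-fold apart, 52.1% were higher in CD45-negative cells, against 66.7% under cyclic loess, 82.0% under median scaling and 99.2% under spike-in scaling.

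At day 0 the order was the other way round. Of 18 member probes measured in both sorts, 12 were at least 2-fold lower in CD45-negative cells (20.5% of gene probes), with a median difference of -2.07, and 1, Cd8b1 at 2.54, was higher (18.5%). With bounds counted 23 of 35 were lower (21%) and 1 higher (18.6%). Of the 35, 17 were above background in LSK cells only and could not be called higher. The largest measured differences were those of Tcrb-V13 (-4.47 and -3.94), Cd3d (-3.96), Thy1 (-3.65) and Ms4a4b (-3.61). For these genes the LSK array of healthy mice thus gave the higher level. Under normexp background correction the median was -0.89, and 8 probes were at least 2-fold lower. Of gene probes at least 2-fold apart, 47.3% were higher in CD45-negative cells, against 4.75% under spike-in scaling.

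Other genes of the pathway were read from 6 lists, each gene at its brightest probe and with bounds counted. Beside these counts, 22.1% of gene probes were at least 2-fold higher and 19.1% lower in CD45-negative cells at day 10, and 2.01% were higher and 3% lower in LSK cells. Such shares, here and for the roles and markers, are over probes, whereas the lists count each gene once, so the units differ. With so low a share in LSK cells, counts of 0 or 1 per list there lie near it. Of 25 genes downstream of the receptor, 18 were higher and 2 lower by 2-fold or more in CD45-negative cells at day 10. Skap1, an adaptor for integrin activation, was at least 5.39 log2 units higher. Rasgrp1, which loads Ras with GTP after receptor engagement, stood at 1.45 and -2.46 at day 10 and day 0, a difference of 3.91. Grap2, an adaptor that binds LAT and SLP-76, ran the other way, with -1.71 and 2.22 at day 10 and day 0, a difference of -3.93 (-0.66 under spike-in scaling). The other lower gene, Nfatc2, differed by -1.13 but by -0.66 under quantile normalization and by 2.13 under spike-in scaling. In LSK cells 0 of the 23 above background on either array were higher and 1 lower by that size, and 0 were lower under normexp.

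Genes that restrain the receptor were higher with those that carry its signal. Of 19 such genes 16 were at least 2-fold higher in CD45-negative cells at day 10 and 0 lower. The inhibitory receptors Pdcd1 and Tigit were at least 3.81 and 2.89 log2 units higher, the adaptor Sla2 at least 2.16 and the phosphatase Ptpn22 2.05. In LSK cells Pdcd1 (1.22) and Havcr2 (1.26) were higher and Lag3 (-2.22) lower. Under normexp 10 of the 19 were higher in CD45-negative cells, the Sla2 bound was 0.56, and the LSK differences of Pdcd1 and Havcr2 were 0.44 and 0.90. Of 12 activation genes 8 were higher and 0 lower in CD45-negative cells, led by Ifng, the type II interferon gene, at least 6.09 higher, and by the transcription factors Egr2 (2.71), Nr4a1 (2.35) and Irf4 (2.27). Among the 12, Cd40lg and Egr3 were below background on all 4 arrays and Il2 in CD45-negative cells at both days. In LSK cells 0 of the 8 above background on either array differed by 2-fold.

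Of 12 naive and homing genes 9 in CD45-negative cells were at least 2-fold higher at day 10 and 1, Klf2 at -1.50, was lower, although Klf2 was 1.76 higher under spike-in scaling. The chemokine receptors Cxcr3 (5.02), Ccr7 (2.80) and Ccr9 (2.23) and the chromatin organiser Satb1 (1.87) led the list, and Ccr9 gave 0.97 under normexp. In LSK cells Ccr9 (-1.31) and Klf2 (-1.14) were lower and 0 of the 11 above background on either array higher. Of 15 thymic and early T genes 10 were higher and 2 lower in CD45-negative cells: Rag2, a subunit of the recombinase that rearranges receptor genes, was at least 2.14 higher, Notch1 1.99, the Notch target Dtx1 1.86 and Il2ra at least 1.79. Ptcra, which encodes the surrogate alpha chain of thymocytes, was below background on all 4 arrays. Cd24a (-1.67) and Notch3 (-1.25) were lower, but gave -0.70 and -0.89 under quantile normalization and 1.59 and 2.01 under spike-in scaling. Under normexp the bounds of Rag2 and Il2ra were 0.51 and 0.30. In LSK cells Dtx1 (-1.28, and -0.71 under normexp) was lower and 0 of the 12 above background on either array higher. Of 12 Ikaros and E protein partners 9 were higher and 0 lower in CD45-negative cells, among them Id2 (2.54), Ikzf2 (at least 2.15), Ets1 (1.62) and Id3 (1.49), and 0 of the 12 differed by 2-fold in LSK cells. Under normexp 5 of these 12 were higher in CD45-negative cells, and the Ikzf2 bound was 0.44.

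**Figure D4:**
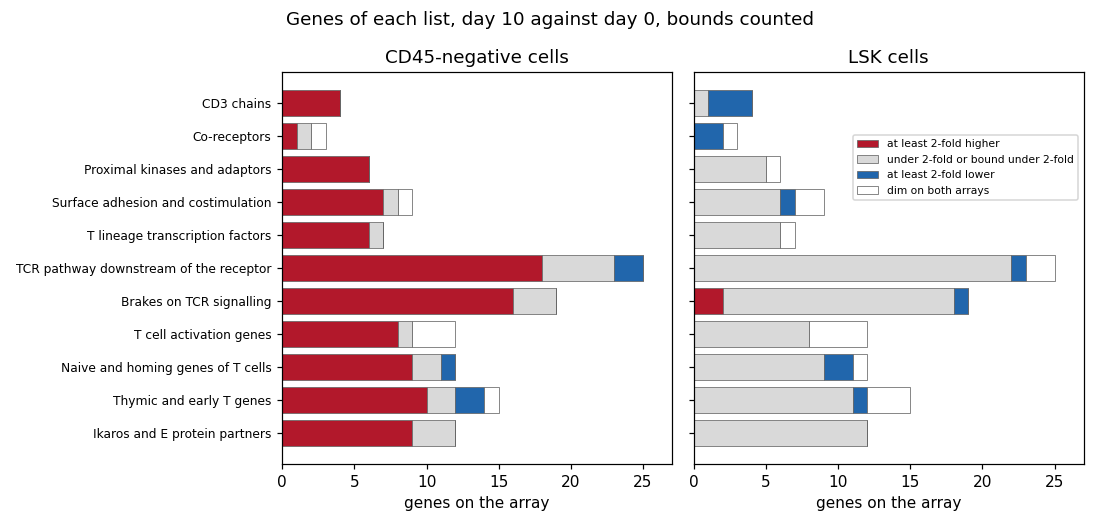
Number of genes of each role and pathway list by their day 10 against day 0 difference, with bounds counted, in CD45-negative cells (left) and LSK cells (right). Red marks at least 2-fold higher, grey under 2-fold, blue at least 2-fold lower and white dim on both arrays. The left panel is mostly red and the right panel mostly grey.

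Markers of some other blood cells moved with the T cell set, and their part in it was not tested. Of 14 NK and innate lymphoid markers, 14 were above background in day 10 CD45-negative cells and 4 at day 0. At day 10 11 were higher by 2-fold or more and 1, Il1rl1, lower (22.1% and 19.1% of gene probes, bounds counted). In LSK cells 14 of 14 were above background at day 10 and 13 of 14 at day 0. The log2 of the summed level of this list was 6.66 in day 10 and 3.78 in day 0 CD45-negative cells, and 6.14 in day 10 and 6.36 in day 0 LSK cells. One gene, Nkg7, carried most of the LSK sums, at 5.86 in day 10 and 6.10 in day 0 LSK cells. The list's median level was 1.65 in day 10 and -3.41 in day 0 CD45-negative cells, and -0.57 in day 10 and -1.28 in day 0 LSK cells. At day 10 11 of the 14 were at least 2-fold higher in CD45-negative than in LSK cells (12.6% of gene probes). Ncr1, a receptor that defines NK cells, was above background in day 10 CD45-negative cells and below it at day 0. Cd3d, Cd3e, Cd3g and the receptor loci are chiefly T cell genes, whereas Txk, Cd2, Ms4a4b, Sh2d1a, Tbx21, Eomes, Zap70, Lck and Cd247 are used by NK cells too. How far B cells or other cells gave the signal of member genes was not tested.

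Plasma cell markers followed the same order of arrays as Cd3d: the log2 of their summed level was 7.74 in day 10 and 1.94 in day 0 CD45-negative cells, and 3.50 in day 10 and 7.66 in day 0 LSK cells. A single gene carried most of the 2 highest sums, at 7.62 in day 10 CD45-negative cells and 7.60 in day 0 LSK cells. The median level of the list was 1.61 and -1.73 in CD45-negative cells of day 10 and day 0, and -0.46 and 0.43 in LSK cells of day 10 and day 0. Of 6 such genes 6 were at least 2-fold higher in CD45-negative cells at day 10 (22.1% of gene probes), and 3 were at least 2-fold lower in LSK cells (3%), bounds counted. Of 10 B cell markers 8 were at least 2-fold higher at day 10 in CD45-negative cells, bounds counted (22.1% of gene probes). Already at day 0, 9 of the 10 were above background there. At that day 5 were at least 2-fold higher than in LSK cells and 0 lower (18.6% and 21% of gene probes). Of 9 neutrophil markers 5 were at least 2-fold higher and 1 lower in CD45-negative cells at day 10. Of 7 monocyte and macrophage markers 4 were higher and 1 lower by that size (22.1% and 19.1% of gene probes, bounds counted). All 9 and all 7 were already above background in day 0 CD45-negative cells. The log2 of the summed level of the erythroid list was 8.93 in day 10 and 11.3 in day 0 CD45-negative cells. Red cell transcripts took a larger part of the day 0 CD45-negative array, the one on which the T cell genes were lowest, and their part in those low levels was not tested.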

How the data were processed

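Gene expression was measured on 4 one-colour arrays, 1 per group. Per the file headers, the deposited scanner intensity values were made with Agilent Feature Extraction 10.5.1.1, on a design annotated to mm9; the processed intensity is background-subtracted and detrended within each array. The deposited series table holds log2 values that, from the values, equal the log2 processed signal of the same array minus a constant to within 0.001 for at least 99.90% of probes; its authors' centring lies near the 75th percentile. Control spots and outlier-marked spots were left out, spots of a probe averaged, log2 taken and the 75th percentile of each array subtracted. Python 3.11.15, numpy 2.4.6, pandas 2.3.3 and matplotlib 3.10.9 were used. The alternatives normexp (offset 50), quantile and cyclic loess used R 4.3.3 with limma 3.58.1. Comparison code was tested on simulated data. All 4 arrays shared 1 slide.

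The 29 named genes are given at their brightest probe by mean level, a gene being said to disagree where another probe went the other way or differed by over 1 log2 unit. Of each pathway list the 4 genes with the largest CD45-negative difference are named, except that 1 gene downstream of the receptor is counted but not reported here; lower genes, LSK genes and genes below background named beside them were chosen after their values were seen. Members and lists were chosen with earlier results of these data known. Noncoding probes (20679) were left out of the background counts. Promoters are RefSeq's, and Cd2, Icos, Ptprcap, Sh2d1a, Thy1, Cd28, Cd6, Cd4 and Cd8b1 had no entry.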

Additional observations from a re-analysis of the deposited data

Results flagged for a closer look

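For 6 of the 26 members with a value in both sorts (of 36, being 29 genes at their brightest probe and 7 receptor probes), the day difference was at least 2-fold in both sorts and ran in opposite directions, higher at day 10 in CD45-negative cells and lower in LSK cells. The difference between the sorts was not tested, since each group has 1 array. Cd3d differed by 6.64 in CD45-negative cells and by -2.04 in LSK cells. Cd3e differed by 1.20 in CD45-negative cells and by -1.61 in LSK cells. Cd3g was at least 3.95 higher in CD45-negative cells, and its LSK bound was -1.08. Cd8a was at least 4.78 higher in CD45-negative cells and differed by -3.05 in LSK cells. Cd6 differed by 3.75 in CD45-negative cells and by -1.15 in LSK cells. Tcrb-V13 at P102846 differed by 6.64 in CD45-negative cells and by -1.16 in LSK cells. With normexp background correction Cd3e gave 0.20 and -0.69, and the LSK values of Cd3g and Cd6 were -0.32 and -0.96, so that only Cd3d, Cd8a and Tcrb-V13 at P102846 stayed at least 2-fold apart in both sorts.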

How the results depend on the processing

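No paired analysis was possible because each group has 1 array. Counts are of member probes at least 2-fold apart, with bounds counted where said so. Under normexp, the medians were 2.86 (CD45-negative by day), -0.37 (LSK by day), 1.73 (CD45-negative against LSK, day 10) and -0.89 (day 0). The LSK lower count was then 3, and 3 with bounds, and the day 0 lower count with bounds was 14. With bounds the higher count was then 27 in CD45-negative cells by day, against 34 under the reported scaling. Between sorts at day 10 it was 26, against 33. Under median scaling, the CD45-negative day median was 3.95 and the day 10 median between sorts 2.64, with a lower count of 0, and 0 with bounds. Under spike-in scaling, these 2 medians were 6.75 and 3.91 (lower count 0, and 0 with bounds), the LSK median -0.68, and the day 0 median -3.83 with 0 higher, and 0 with bounds. Cyclic loess gave 2.58 at day 10 and -1.89 at day 0. Scaling on probes above background on all arrays gave 2 lower at day 10, and 2 with bounds. The deposited values put 1 probe, Cd8b1, lower in CD45-negative cells by day, and 1 with bounds. With no filter on dim probes there were 42 higher and 1 lower in CD45-negative cells by day, 1 higher and 12 lower in LSK cells, 34 higher (median 2.48) at day 10, and 3 higher and 30 lower at day 0. Taking dim values as measured gave 42 higher (median 3.72) in CD45-negative cells by day, a median of 2.66 at day 10, and 28 lower (median -2.34) at day 0. Keeping probes above background on all 4 arrays gave an LSK median of -0.63, and at day 10 14 higher, 0 lower and a median of 2.80. Among single genes, 612 of 617 CD45-negative values and 542 of 557 LSK values kept their sign. Of the same values, 293 of the 617 and 85 of the 557 were classed as moved in size. Settings that only change the filter on dim probes leave the value of a gene measured on both arrays unchanged. Part of the sign counts was therefore fixed in advance. Under spike-in scaling Klf2 (1.76), Nfatc2 (2.13), Cd24a (1.59) and Notch3 (2.01) reversed in CD45-negative cells. The cause of these shifts was not tested beyond the scaling itself. For the 6 pathway lists, added after seeing the data, the CD45-negative counts of higher genes under normexp were 19, 10, 6, 7, 7 and 5 in the order of the report. Signal over background limits the day 0 CD45-negative array most: its lowest measured level was -3.15, against -4.24 to -3.95 on the other arrays.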

Other observations

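Receptor probes outside the set, found by their descriptions after the values had been seen, were read on the same scale. Of 56 such probes 37 were not well above background on any array. The 4 that their descriptions place in a constant region were at least 2-fold higher in CD45-negative cells at day 10 with bounds counted (22.1% of gene probes). These 4 were also above background on both LSK arrays, and 1 of them was so in day 0 CD45-negative cells. Of the other 52, most of them variable segments, only 12 were above background on either CD45-negative array. Of these 0 were at least 2-fold higher at day 10 and 4 lower (22.1% and 19.1% of gene probes). With so few probes no contrast between constant and variable segments is drawn. The rest of the 52 could be called in neither direction. The beta constant probe printed beside Tcrb-V13 (Tcrb C1, filed as ENSMUST00000103291) stood at 4.36 and -2.71 in CD45-negative cells of day 10 and day 0 and at 1.55 and 2.15 in LSK cells of day 10 and day 0. Its day difference in CD45-negative cells was 7.06.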
